A study of Bos taurus with 36 samples.

Results

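Proteins bound for secretion enter the cell's export route at the endoplasmic reticulum (ER), and the genes described here encode the machinery of that first step. The list holds 56 genes, taken by their names under a rule that uses no measured value, in 4 groups: 16 chaperones and folding enzymes, 10 stress sensors and degradation factors, 19 translocation factors, and 11 genes of the COPII coat and of retrieval to the ER. Of these, 47 were measured, through 71 probe sets, out of 9154 genes with a probe set of a single annotated gene. They comprise 15 chaperones, 6 genes of sensing and degradation, 18 of translocation and 8 of COPII and retrieval. The other 9 (PDIA6, XBP1, ATF6, ERN1, EDEM1, SRP54, SEC23B, SEC24A and SEC24D) had no probe set annotated to them alone and were not analysed here, so that of the stress sensors only EIF2AK3 could be followed.

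Liver RNA of 8 Holstein-Friesian dairy cows was hybridised to the Affymetrix Bovine Genome Array, 1 biopsy per array and 36 arrays in all. The animals were healthy, in first lactation and 9 to 12 weeks past calving. At 0 h, 200 microgram of E. coli lipopolysaccharide (LPS), a bacterial cell wall component that sets off an acute phase response, was infused into 1 front gland of the udder and saline into the other. Biopsies of 8 cows taken at -22, 9 and 48 h were measured, and 4 of these cows (1, 3, 7 and 8) were also measured at 3, 6 and 12 h. The reference is the mean of all 8 cows at -22 h, also for 3, 6 and 12 h, when only 4 of them were measured. The study reports that in cows given saline, biopsies altered neither clinical measures nor the genes it selected. No cow given saline alone was analysed here. For the ER genes, effects of LPS therefore cannot be told apart from those of repeated biopsies or of the hour of the day.

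In the ER, the signal recognition particle (SRP) and the SEC61 channel bring a growing protein into the lumen, where signal peptidase removes its signal peptide. Chaperones such as HSPA5 (BiP) and HSP90B1 (GRP94) and disulfide isomerases then fold it, and folded cargo leaves in COPII vesicles. Unfolded protein is sensed by EIF2AK3 (PERK), ERN1 (IRE1) and ATF6, which start the unfolded protein response and raise the transcription of chaperones and of the genes of ER-associated degradation, the removal of misfolded protein to the proteasome. The hepatocyte secretes most plasma proteins, and in an acute phase response its secretory output changes.

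The values are log2 intensities, and a change is the difference between the mean of an hour and the mean at -22 h, with the standard error (SE) of limma. A gene was read through its brightest probe set and was called when the p, adjusted by Benjamini-Hochberg over all 24128 probe sets, was below 0.05. Array medians lay between 4.15 and 4.38, and the values of the table between 0.69 and 16.4. The spread of a gene was estimated over all hours together. Its SE at an hour thus depends on how many cows were measured, and not on how far they differed at that hour. Of the 8 hepatocyte markers, none had a mean below 5 at any hour, and at 9 h FGB was called higher and 5 were called lower. The summed linear level of the 5 neutrophil markers measured, with medians of 197 at -22 h, 2290 at 3 h, 4900 at 6 h, 11700 at 9 h, 16200 at 12 h and 1420 at 48 h, moved over the same hours as the genes described here (ranges 106 to 281, 1430 to 3480, 4750 to 6030, 5320 to 33000, 9890 to 22300 and 784 to 3810), and all 5 were called higher at 9 h. Its part in the changes was not tested. B and plasma cell markers, which would mark another secretory cell, showed no such course. Their summed level had a median of 576 (267 to 1200) at 9 h and of 937 (349 to 1570) at -22 h, 4 of the 5 had a mean below 5 at both hours, and 1 of 5 was called higher at 9 h. Called higher and lower at 9 h were 0 and 2 of 6 macrophage markers, 0 and 2 of 8 T and natural killer cell markers, 1 and 4 of 6 endothelial markers, and 1 and 1 of 7 stellate cell and fibroblast markers. Over all genes 36.6% were higher and 28.4% lower at 9 h, so the lower counts of the first 2 lists lay near the background. Means below 5 at 9 h were found for 1, 7, 3 and 3 markers of these 4 lists, and for 2 of the 5 neutrophil markers. In bulk tissue, fewer cells of a type and less RNA per cell cannot be told apart.

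Most of the ER genes rose after LPS. At 3 h, 7 of the 47 were higher than at -22 h, against 4.47% of all genes, and none was lower, against 2.57%. At 6 h, 38 were higher and 4 lower (26.0% and 29.3% of all genes), at 9 h 39 and 4 (36.6% and 28.4%), and at 12 h 41 and 1 (30.9% and 22.2%). At 48 h, 28 were still higher and 1 lower (15.0% and 16.2%). The median change of the 47 genes was 0.41 at 3 h, 0.98 at 6 h, 1.49 at 9 h, 1.51 at 12 h and 0.54 at 48 h, while that of all genes lay between -0.02 and 0.04. Centring each array on its median moved the median of all probe sets at 48 h to 0.17 and that of the ER genes to 0.68, of which 35 were then called higher and none lower. The calls over all 24128 probe sets moved too, from 4329 to 11002 higher and from 2941 to 2000 lower.

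**Figure D1:**
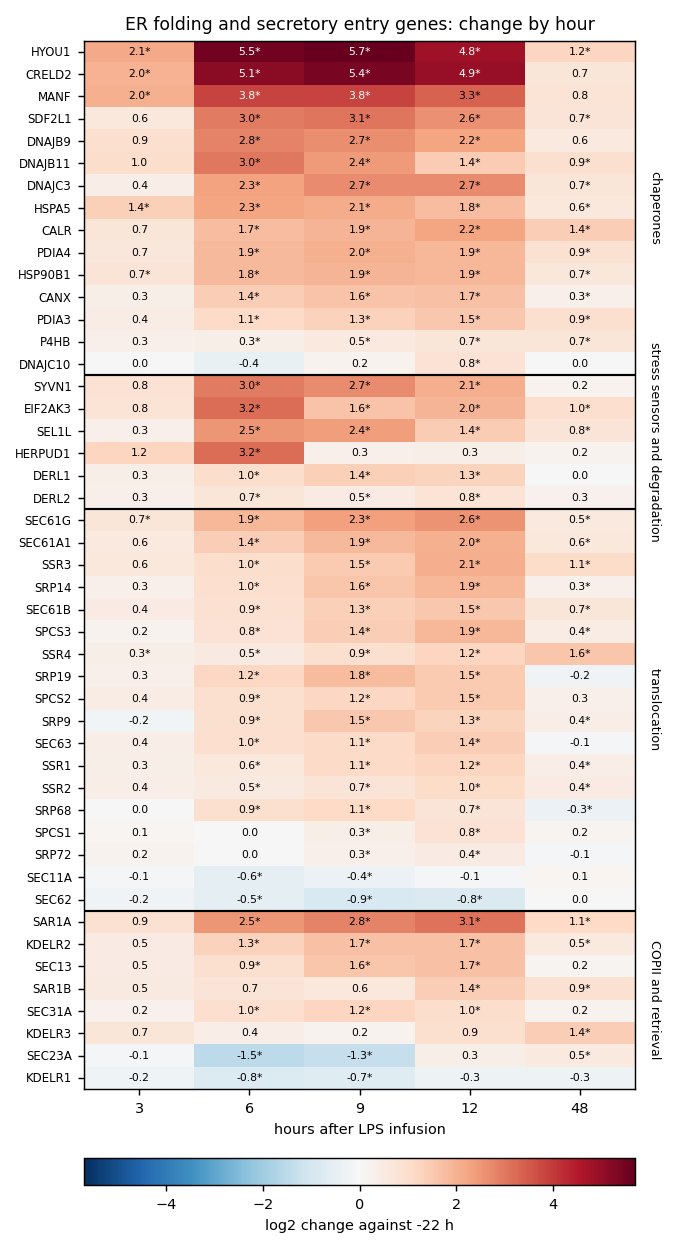
Log2 change of each of the 47 measured genes at 3, 6, 9, 12 and 48 h against -22 h, by group, with the change printed in each cell and an asterisk where the adjusted p was below 0.05. Most cells from 6 to 12 h are red (higher than at -22 h), HYOU1, CRELD2 and MANF most deeply, and the blue cells belong mainly to SEC62, SEC11A, SEC23A and KDELR1.

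**Figure D2:**
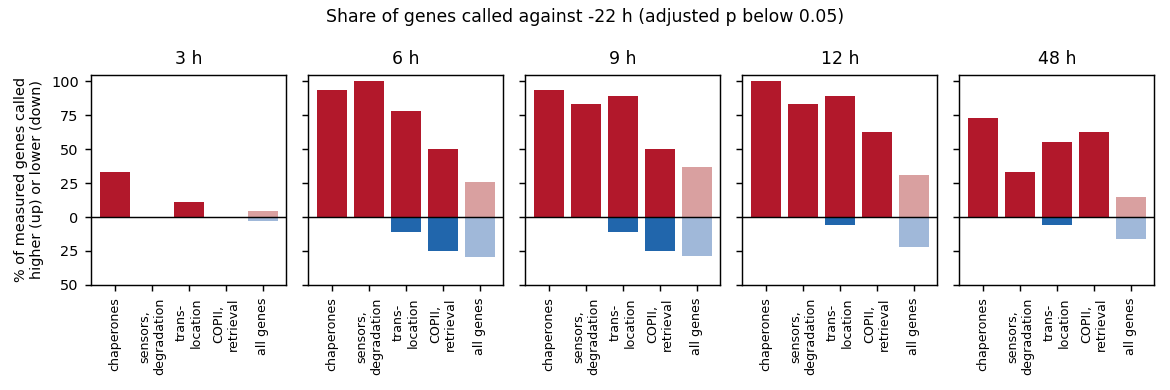
Percent of measured genes called higher (bars up) or lower (bars down) than at -22 h, for the 4 groups and for all 9154 genes, at each hour. All 15 chaperones were called higher at 12 h, and none was called lower at any hour in the fit shown, which has no term for the cow.

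Chaperones made up 5 of the 7 genes called at 3 h and had the 3 largest changes of the list. Of 15 measured, 5 were higher at 3 h, 14 at 6 h, 14 at 9 h, 15 at 12 h and 11 at 48 h, with median changes of 0.70, 2.27, 2.13, 1.91 and 0.71. Over all genes the shares higher at these hours were 4.47%, 26.0%, 36.6%, 30.9% and 15.0%. The mean of the 15 ran from 12.3 to 13.0 over the 8 cows at 9 h, and from 9.63 to 11.1 over the same cows at -22 h, without overlap. The group included the Hsp70 and Hsp90 chaperones of the lumen, their DnaJ cochaperones, the lectin chaperones calnexin (CANX) and calreticulin (CALR) and the disulfide isomerases PDIA3, PDIA4 and P4HB.

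HYOU1, an Hsp70-related exchange factor of HSPA5, had the largest change of the whole list. Its log2 values were 5.87, 6.52 and 9.15 at -22 h (lowest, median and highest of 8 cows). They were 9.50, 8.07, 9.22 and 8.94 in cows 1, 3, 7 and 8 at 3 h, 12.39, 11.94, 12.44 and 12.32 at 6 h, and 11.55, 12.55 and 12.89 (lowest, median and highest) at 9 h. Every cow at 6 and 9 h lay above the highest value at -22 h, which came from cow 1, whereas at 3 h cows 3 and 8 lay below that value. The change was 2.14 at 3 h (SE 0.51, adjusted p = 0.00685), 5.66 at 9 h (SE 0.42, 50.7-fold, adjusted p = 2.06e-13) and 4.81 at 12 h. The call at 3 h was lost without cow 7 or cow 8, and when the second brightest probe set of HYOU1 was read.

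CRELD2, a secreted ER stress-induced protein with isomerase activity, and MANF, a cochaperone-like factor of the lumen that is also secreted, followed the same course. CRELD2 values were 12.53, 13.16 and 13.64 (lowest, median and highest) at 9 h, against 6.83, 7.48 and 10.38 at -22 h. The change was 5.41 (SE 0.48, 42.5-fold, adjusted p = 1.57e-11), and the hours did not overlap. MANF values were 14.26, 14.67 and 14.77 at 9 h and 10.06, 10.53 and 12.69 at -22 h, a change of 3.85 (SE 0.34, adjusted p = 1.31e-11). For both genes the highest of the -22 h values was that of cow 1. At 3 h MANF was higher by 2.01 (SE 0.41, adjusted p = 0.00153) and CRELD2 by 2.00 (SE 0.59, adjusted p = 0.0353). The 3 h call of CRELD2 was lost without any one of cows 3, 4, 5, 6, 7 or 8 and in the 4 cows sampled at all hours alone.

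HSPA5, the main Hsp70 chaperone of the lumen and the usual marker of the unfolded protein response, was described in full although its change was not among the largest, a choice made after its values were seen. Its log2 values were 14.68, 14.04, 14.47 and 14.52 in cows 1, 3, 7 and 8 at 3 h, and 15.35, 15.31, 15.39 and 15.27 at 6 h. They were 12.09, 12.97 and 14.33 (lowest, median and highest of 8) at -22 h. The spread between cows was narrow at 6 h (SD 0.05, n = 4) and wide at -22 h (SD 0.63, n = 8). The highest value of the table was 16.4, and whether nearness to it limited the measured rise was not tested. The change was 1.36 at 3 h (SE 0.28, adjusted p = 0.00128), 2.27 at 6 h (4.82-fold, adjusted p = 2.87e-08) and 2.13 at 9 h. The other 2 probe sets of HSPA5, both less bright, gave larger changes at 6 h, 4.01 (16.2-fold) and 2.67 (6.36-fold). At 9 h the changes of the 3 probe sets ran from 0.20 to 3.45, and 2 were called higher. HSP90B1, the Hsp90 of the ER, lay similarly high, with 15.17, 15.37 and 15.49 at 9 h, against 13.04, 13.38 and 14.00 at -22 h (change 1.93, SE 0.12, adjusted p = 9.22e-15).

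Among the DnaJ cochaperones, which deliver substrates to HSPA5 and stimulate its ATPase, DNAJB9 rose by 2.83 at 6 h, DNAJB11 by 3.02 at 6 h and DNAJC3 by 2.70 at 12 h. SDF2L1, a partner of DNAJB11, rose by 3.07 at 9 h, starting from a mean of 4.28 at -22 h that lay at the level of the array medians, so its change may be understated. DNAJC10, a disulfide reductase with a DnaJ domain, was called at 12 h (change 0.82, adjusted p = 0.000732), and at 6 h its change was -0.43 (adjusted p = 0.0682). With the cow as a replicate block it was called lower at 6 h (change -0.38, adjusted p = 0.0498). The 12 h call of DNAJC10 was lost when its second brightest probe set was read. Of the lectin chaperones, CANX rose by 1.66 and CALR by 2.23 at 12 h. Of the disulfide isomerases, PDIA4 rose by 2.03 at 9 h and PDIA3 by 1.52 at 12 h. P4HB, the archetypal protein disulfide isomerase, changed less, by 0.33 at 6 h (adjusted p = 0.017), 0.70 at 12 h and 0.68 at 48 h. Its 6 h call was lost without cow 1, 7 or 8.

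**Figure D3:**
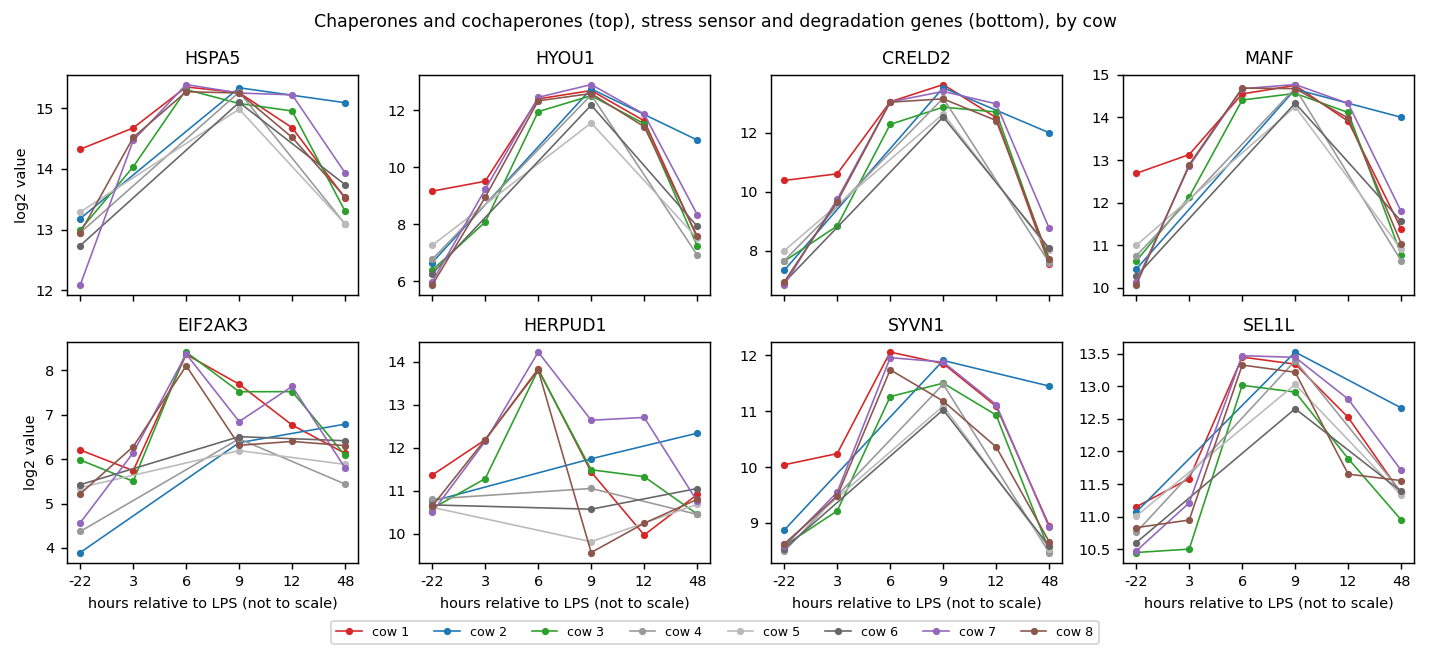
Log2 value in each cow (lines) against hours relative to LPS (axis not to scale) for HSPA5, HYOU1, CRELD2 and MANF (top) and EIF2AK3, HERPUD1, SYVN1 and SEL1L (bottom). The chaperones were high from 6 to 12 h, HERPUD1 was high in all 4 cows at 6 h and spread widely at 9 and 12 h, and cow 1 at -22 h and cow 2 at 48 h stand above the other cows in most panels.

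The stress sensor and the degradation factors had their largest median change at 6 h. None of the 6 was called at 3 h, 6 were higher at 6 h, 5 at 9 h, 5 at 12 h and 2 at 48 h, with median changes of 0.55, 2.74, 1.49, 1.35 and 0.24. The shares of all genes called higher were 4.47%, 26.0%, 36.6%, 30.9% and 15.0%. For 4 of the 6 the largest change was that at 6 h. EIF2AK3, the kinase that slows translation in the unfolded protein response, had values of 8.36, 8.41, 8.37 and 8.10 in cows 1, 3, 7 and 8 at 6 h, against 3.90, 5.29 and 6.21 (lowest, median and highest of 8) at -22 h. The 4 cows at 6 h were well above every value at -22 h (change 3.18, SE 0.34, 9.08-fold, adjusted p = 1.83e-09). At 9 h the values were 6.19, 6.48 and 7.69 (change 1.61), and at 48 h the change was 0.98 (SE 0.28, adjusted p = 0.0111). Without cow 2 the 48 h change was 0.70 (adjusted p = 0.068), and the call was also lost in the 4 cows sampled at all hours.

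HERPUD1, a membrane protein that organises the degradation complex, had a single peak. Its values were 10.50, 10.66 and 11.36 at -22 h, 12.19, 11.28, 12.15 and 12.19 in cows 1, 3, 7 and 8 at 3 h, 13.84, 13.82, 14.23 and 13.81 at 6 h, and 9.97, 11.33, 12.71 and 10.24 at 12 h. At 9 h they spread over 9.56, 11.25 and 12.64 (lowest, median and highest). All 4 cows at 6 h were above the range of every other hour, while the 9 and 12 h values lay on both sides of the -22 h values. The change was 3.18 at 6 h (SE 0.44, adjusted p = 2.61e-07), and 0.30 at 9 h (SE 0.36) and 0.32 at 12 h, neither of them called. It was the one gene of the list called lower at 9 h than at 6 h (log2 change -2.88, Bonferroni-adjusted p = 0.00527). With the cow as a replicate block in the model, and without any one of cows 1, 3, 4, 5, 6 or 8, that call was lost.

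SYVN1 (HRD1), the ubiquitin ligase of ER-associated degradation, and SEL1L, its adaptor, stayed high longer. SYVN1 values were 12.06, 11.26, 11.96 and 11.74 in cows 1, 3, 7 and 8 at 6 h, against 8.49, 8.60 and 10.04 at -22 h (change 2.96, SE 0.37, adjusted p = 3.94e-08), and its changes were 2.70 at 9 h and 2.08 at 12 h. SEL1L values were 13.45, 13.02, 13.47 and 13.33 at 6 h and 10.45, 10.79 and 11.15 at -22 h (change 2.53, SE 0.23, adjusted p = 1.12e-10). In neither gene did the 6 h values overlap those at -22 h. DERL1 and DERL2, channel-like proteins that pass misfolded protein to the cytosol, rose less, DERL1 by 1.36 at 9 h and DERL2 by 0.77 at 12 h.

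The translocation genes had their largest median change at 12 h. Of 18 measured, 2 were higher at 3 h, 14 at 6 h, 16 at 9 h, 16 at 12 h and 10 at 48 h, while 2 were lower at 6 and 9 h, 1 at 12 h and 1 at 48 h. All genes were called higher in 4.47%, 26.0%, 36.6%, 30.9% and 15.0%, and lower in 2.57%, 29.3%, 28.4%, 22.2% and 16.2%. The median changes were 0.30, 0.89, 1.14, 1.33 and 0.34. For 12 of the 18 the largest change was a rise at 12 h. The mean of the 18 was between 11.8 and 12.0 in the 4 cows at 12 h, and between 10.3 and 10.9 in the 8 cows at -22 h.

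All 3 subunits of the SEC61 channel rose. SEC61G, the gamma subunit, had values of 14.71, 14.81, 14.57 and 14.62 in cows 1, 3, 7 and 8 at 12 h, against 11.70, 12.12 and 12.66 (lowest, median and highest of 8) at -22 h. The hours did not overlap (change 2.56, SE 0.21, 5.91-fold, adjusted p = 7.44e-12), and at 3 h its change was 0.69 (adjusted p = 0.0489). That early call was lost with median centring (adjusted p = 0.0516), in the 4 cows sampled at all hours alone, and without any one of cows 1, 4, 6, 7 or 8. SEC61A1, the pore-forming subunit, had 12.40, 12.03, 12.17 and 12.25 at 12 h and 9.80, 10.14 and 10.82 at -22 h (change 2.03, SE 0.22, adjusted p = 2.34e-09), and SEC61B rose by 1.54 at 12 h. SEC63, which couples the channel to HSPA5, rose by 1.39 at 12 h, whereas its partner SEC62 was called lower at 6, 9 and 12 h.

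The 4 subunits of the translocon-associated protein complex, which sits beside the channel, rose together at 6, 9 and 12 h. SSR3 values were 13.01, 12.95, 12.64 and 13.08 in cows 1, 3, 7 and 8 at 12 h, against 10.48, 10.83 and 11.29 at -22 h, without overlap (change 2.07, SE 0.20, adjusted p = 2.81e-10). SSR1 rose by 1.23 and SSR2 by 1.04 at 12 h. SSR4, chosen for full description after its values were seen, was the exception in time. It lay at 11.66, 11.87 and 12.05 at -22 h (lowest, median and highest), 12.14, 12.26, 12.22 and 12.11 in cows 1, 3, 7 and 8 at 3 h, 12.44, 12.19, 12.36 and 12.45 at 6 h, 12.50, 12.80 and 12.98 at 9 h, 13.18, 12.87, 13.00 and 13.33 at 12 h, and 13.18, 13.48 and 13.68 at 48 h. Its changes were 0.31, 0.49, 0.93, 1.23 and 1.60 at the 5 hours, so the latest hour had the largest change (at 48 h SE 0.07, adjusted p = 5.92e-16, higher in 8 of 8 cows).

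SRP as a whole particle binds the signal peptide and halts elongation. Of its measured proteins, SRP14 rose by 1.87 at 12 h, SRP19 by 1.78 and SRP9 by 1.54 at 9 h, and SRP72 by 0.45 at 12 h. SRP68 rose by 1.13 at 9 h and was lower at 48 h (change -0.35, adjusted p = 0.0107). Its probe set was dim, with a mean of 5.73 over all arrays, its calls were lost with the second brightest probe set, and the call at 48 h was lost with median centring. The accessory subunits of signal peptidase rose at 12 h, SPCS3 by 1.90, SPCS2 by 1.51 and SPCS1 by 0.83, and SPCS1 did not pass the test at 6 h (change 0.03, adjusted p = 0.828).

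**Figure D4:**
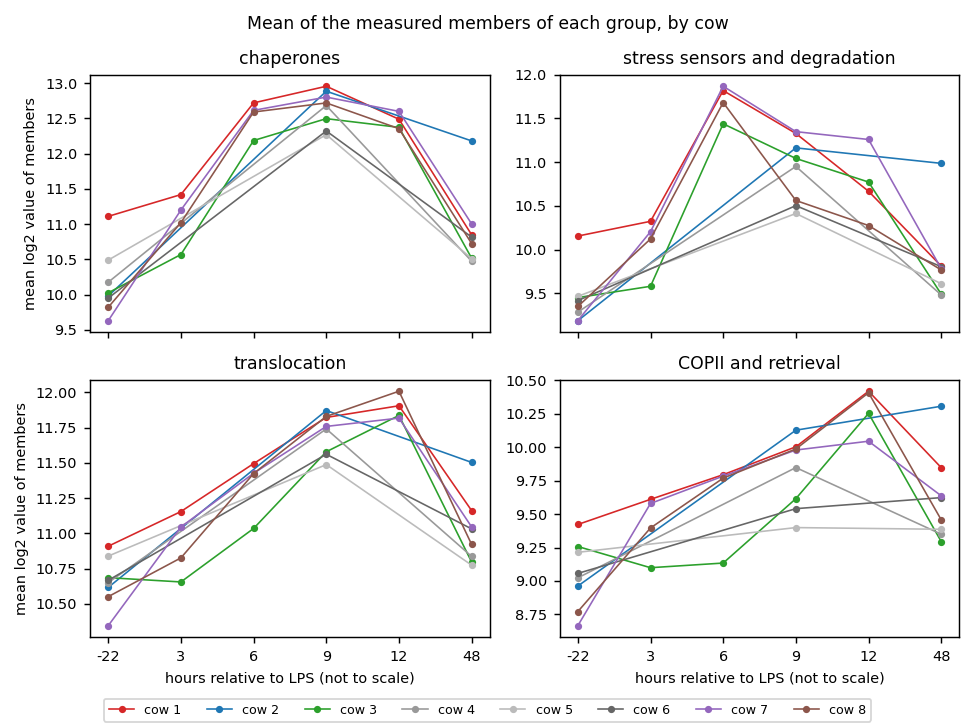
Mean log2 value of the measured genes of each group in each cow (lines) against hours relative to LPS (axis not to scale). The group of sensing and degradation is highest at 6 h, the translocation and COPII groups at 12 h in most of the 4 cows sampled then, cow 1 is high at -22 h, cow 2 is high at 48 h, and cow 3 is low at 6 h.

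COPII coat and retrieval genes went both ways. Of 8 measured, 4 were higher and 2 lower at 6 and at 9 h (50.0% and 25.0%). Over all genes 26.0% were higher and 29.3% lower at 6 h, and 36.6% and 28.4% at 9 h. The share lower thus lay near that of all genes. At 12 h and at 48 h 5 were higher and none lower (all genes 30.9% and 22.2%, then 15.0% and 16.2%), and none was called at 3 h. The median changes were 0.48, 0.82, 0.92, 1.22 and 0.54. SAR1A, the GTPase that starts coat assembly, had values of 10.05, 9.97, 9.64 and 9.76 in cows 1, 3, 7 and 8 at 12 h, against 5.48, 6.78 and 7.91 (lowest, median and highest of 8) at -22 h. Every 12 h value was above every -22 h value (change 3.11, SE 0.31, 8.66-fold, adjusted p = 5.46e-10). Its paralogue SAR1B was called at 12 h (change 1.42) and at 48 h (change 0.86), but not at 6 or 9 h (changes 0.74 and 0.60, adjusted p = 0.0777 and 0.0682). At 12 h it was above its own -22 h value in 3 of the 4 cows. The call at 48 h depended on single cows, as it was lost without cow 2 (change 0.69, adjusted p = 0.0928), 4 or 7. SAR1B was called at 9 h without cow 3, 5 or 6, and at 6 h without cow 3.

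SEC13 and SEC31A, which form the outer cage of the coat, both rose. SEC13 had values of 10.95, 11.14, 10.84 and 11.32 at 12 h, against 9.10, 9.37 and 9.94 at -22 h (change 1.66, SE 0.18, adjusted p = 2.73e-09). SEC31A had 12.56, 12.67 and 12.75 at 9 h and 11.18, 11.39 and 11.70 at -22 h (change 1.24, SE 0.09, adjusted p = 2.37e-13). Neither gene's hours overlapped, and neither gene was called at 48 h (changes 0.16 and 0.18). Retrieval of escaped chaperones depends on the KDEL receptors, of which KDELR2 rose by 1.69 at 12 h, with 12.25, 12.30, 12.09 and 12.29 at 12 h and 10.10, 10.52 and 11.10 at -22 h (SE 0.17, adjusted p = 8.99e-10).

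KDELR3, described after its values were seen, was called at 48 h and, with all cows and no block, at no other hour. Its values were 8.66, 9.78 and 11.19 (lowest, median and highest of 8 cows) at 48 h and 8.15, 8.44 and 8.84 at -22 h (change 1.39, SE 0.33, adjusted p = 0.00287, higher in 7 of 8 cows). The lowest 48 h values lay within the range at -22 h. At 9 h the 8 cows ran from 7.56 to 9.66 and the change was 0.20 (SE 0.33). At 12 h the change was 0.92 (adjusted p = 0.0689), and with the cow as a replicate block it was 0.89 (adjusted p = 0.0134) and called. It was also called at 12 h without cow 2 or cow 5, and at 3 and 9 h in the 4 cows sampled at all hours with the block.

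SEC62, SEC11A, SEC23A and KDELR1 went the other way and were the 4 genes called lower at 6 h and at 9 h. They were singled out after their values were seen. SEC62, which acts with SEC63 in importing short secretory proteins, had values of 10.52, 10.72 and 10.90 at 9 h, against 11.17, 11.63 and 11.89 at -22 h. No 9 h value reached the lowest -22 h value (change -0.87, SE 0.08, adjusted p = 8.04e-11, lower in 8 of 8 cows). SEC62 was also lower at 12 h (change -0.83) and at 48 h its mean differed from that at -22 h by 0.0032 (SE 0.08).

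SEC23A, an inner coat subunit that contacts SAR1, had the largest of the falls. Its values were 7.80, 7.11, 7.98 and 7.98 in cows 1, 3, 7 and 8 at 6 h, against 8.89, 9.17 and 9.62 at -22 h (change -1.49, SE 0.18, adjusted p = 1.75e-08). At 12 h the same cows had 9.89, 9.51, 8.98 and 9.76, above their own 6 h values in every case, and the change against -22 h was 0.33 (adjusted p = 0.155). The second probe set of SEC23A also fell at 6 h (change -0.83, adjusted p = 0.0121), but at 12 h it was called higher than at -22 h (change 1.14, SE 0.27, adjusted p = 0.000723). At 48 h SEC23A was higher than at -22 h (change 0.55, SE 0.14, adjusted p = 0.00711). The test of successive hours called it lower at 6 h than at 3 h (log2 change -1.41, Bonferroni-adjusted p = 0.00227) and higher at 12 h than at 9 h (log2 change 1.64, Bonferroni-adjusted p = 4.64e-06).

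SEC11A, a catalytic subunit of signal peptidase, had values of 10.83, 10.94, 10.89 and 11.15 at 6 h and 11.17, 11.55 and 11.77 at -22 h (change -0.56, SE 0.09, adjusted p = 1.54e-06), and at 12 h its change was -0.13 (adjusted p = 0.257). KDELR1 had 7.99, 7.72, 7.99 and 7.96 at 6 h and 8.31, 8.64 and 9.28 at -22 h (change -0.77, SE 0.15, adjusted p = 8.17e-05), and was not called at 12 or 48 h (changes -0.27 and -0.27), though at 48 h it was called with the cow as a replicate block (adjusted p = 0.0466). At 6 h neither gene overlapped its -22 h range. Under the stricter Bonferroni threshold of 0.01, 2 genes remained lower at 6 h and 2 at 9 h.

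**Figure D5:**
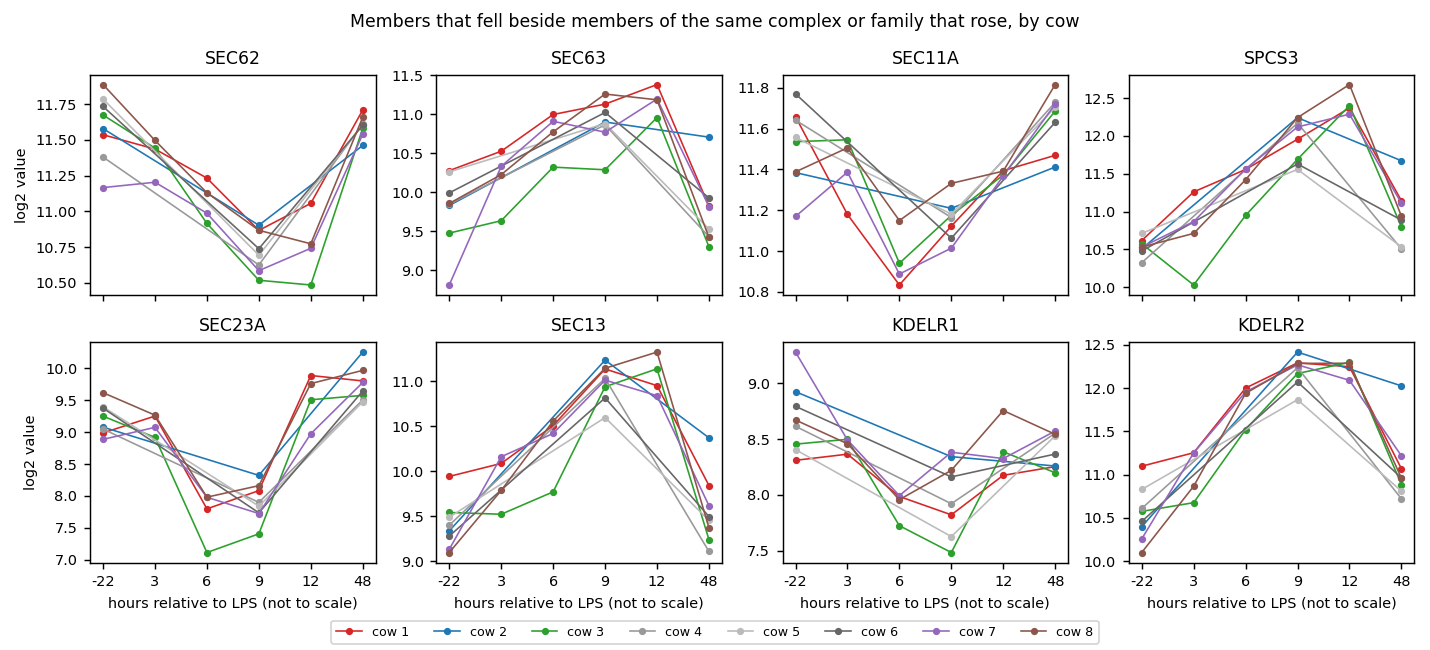
Log2 value in each cow (lines) against hours relative to LPS (axis not to scale) for SEC62, SEC11A, SEC23A and KDELR1, each beside a partner or relative that rose (SEC63, SPCS3, SEC13 and KDELR2). SEC62 was lowest at 9 and 12 h, SEC23A and SEC11A were low at 6 and 9 h and back up at 12 h, and the partners were highest at 9 or 12 h.

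Between successive hours (Bonferroni-adjusted p below 0.01), CANX, DNAJC3, SDF2L1, SEL1L, SRP68 and SRP9 were higher at 6 h than at 3 h, against 5.63% of all genes, and SEC23A was lower, against 5.68%. From 6 to 9 h no gene of the list was called higher and HERPUD1 was called lower (4.15% and 2.72% of all genes), and from 9 to 12 h SEC23A was called higher and none lower (2.25% and 1.42%). At 48 h, 16 of the 47 were lower than at 12 h and SEC62 was higher, against 15.2% and 8.93% of all genes. The 16 were 5 chaperones (CANX, CRELD2, DNAJC3, HSP90B1 and HYOU1), DERL1, 7 translocation genes (SEC61A1, SEC61G, SPCS2, SPCS3, SRP14, SRP19 and SRP68) and KDELR2, SEC13 and SEC31A. The counts for 6 h against 3 h depended on single cows, as leaving out cow 8 left no gene higher and leaving out cow 2 gave 12. For 48 h against 12 h, the count lower was 10, 9, 7 and 6 without cows 1, 3, 7 and 8.

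At 48 h the picture rested partly on 1 animal. The array of cow 2 at 48 h gave the highest 48 h value in 40 of the 47 genes, and in 22.8% of all genes, and that of cow 1 at -22 h gave the highest -22 h value in 32 of the 47, and in 20.1% of all genes. On a scale set by all probe sets, on which the mean at -22 h is 0% and the mean at 9 h is 100%, the 48 h array of cow 2 lay at 24.8% and the -22 h array of cow 1 at 10.3%. HSPA5 was at 15.09 in cow 2 at 48 h, with the next cow at 13.93, and its 48 h call (change 0.60, adjusted p = 0.0456) was lost without any one of cows 2, 3, 4, 6, 7 or 8. Without cow 2, 17 genes instead of 28 were called higher at 48 h, and 1665 instead of 4329 of all 24128 probe sets. Leaving out 1 of the other cows gave 1437 to 6516 of all probe sets. The fewest were without cow 1, when 26 of the 47 genes were called higher. The change of CRELD2 without cow 2 went to 0.14, that of MANF to 0.37 and that of HYOU1 to 0.77, against 0.71, 0.77 and 1.21 with all cows. Without cow 2 the 48 h change was 1.54 for SSR4, 1.22 for CALR, 0.93 for SSR3, 0.84 for PDIA3 and 0.63 for P4HB, against 1.60, 1.42, 1.07, 0.90 and 0.68 with all cows. The second brightest probe set of SSR3 changed by 0.32 at 48 h with all cows and was not called. With only the -22 h array of cow 1 and the 48 h array of cow 2 left out, 26 genes were called higher at 48 h, and 1758 of all probe sets.

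At 3 h the genes called higher were HSPA5, HSP90B1, HYOU1, CRELD2, MANF, SEC61G and SSR4. With the cow as a replicate block SSR4 was lost (change 0.28, adjusted p = 0.0788) and PDIA4 was gained (change 0.61, adjusted p = 0.0272). Without the -22 h array of cow 1 and the 48 h array of cow 2 this count was 20, with arrays weighted by their fit 30, without cow 7 it was 2 and without cow 8 it was 3. Over all 24128 probe sets, the counts higher in these 4 fits were 1182, 1470, 623 and 632, against 844 in the main fit. Cow 3 gave the lowest 3 h value in 38 of the 47 genes (42.7% of all genes) and the lowest 6 h value in 43 (30.2% of all genes). By 9 h cow 3 was the lowest of the 8 cows in 7 genes, and at that hour cow 5 was the lowest in 23.

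Other genes of the same route, 122 in 8 lists of which 102 were measured, were counted in the same way. Of these, 3 were higher and 1 lower at 3 h, 49 and 24 at 6 h, 63 and 22 at 9 h, 67 and 12 at 12 h, and 35 and 12 at 48 h, with median changes of 0.11, 0.35, 0.61, 0.79 and 0.16. Over all genes the shares higher and lower were 4.47% and 2.57% at 3 h, 26.0% and 29.3% at 6 h, 36.6% and 28.4% at 9 h, 30.9% and 22.2% at 12 h, and 15.0% and 16.2% at 48 h, so that the counts at 3 h and those lower at 6 h lay near the background. Of 11 subunits of the oligosaccharyltransferase, which attaches glycans to the entering chain, 7 were higher at 12 h, TMEM258 by 2.80 (SE 0.23), and 10 were higher at 48 h, STT3B by 1.42 (SE 0.23). Of 7 genes of glycan trimming, 3 were higher at 12 h, among them MOGS, the first glucosidase of the pathway (change 2.80, SE 0.27), while OS9 and MAN1A1 were lower.

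Of 17 further disulfide and prolyl isomerases and oxidases, 10 were higher and 4 lower at 9 h, and FKBP14, a prolyl isomerase, had the largest change (2.92 at 6 h, SE 0.48). Of 13 other degradation genes, 9 were higher and 3 lower at 9 h, with SELENOS, a DERL1 partner, at 3.01 at 6 h (SE 0.29). Of 11 other regulators of the unfolded protein response, 5 were higher and 4 lower at 6 h, against 26.0% and 29.3% of all genes. PPP1R15A, which directs the phosphatase that reverses the action of EIF2AK3, had the largest change there (3.34, SE 0.57), DDIT3 was among the genes higher, and at 48 h ATF4, BCAP31 and DDIT3 were lower. Of 14 other targeting genes, 7 were higher and 4 lower at 9 h, and SERP1, a SEC61-associated protein, rose by 3.43 (SE 0.27). Over all genes 36.6% were higher and 28.4% lower at 9 h. The counts lower at 9 h in the isomerase, degradation and targeting lists thus lay near the background.

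Of 18 other COPII and cargo receptor genes, 14 were higher at 12 h, and MIA3 and SEC24B were lower (30.9% and 22.2% of all genes). TFG, which organises ER exit sites, had the largest change of that list (2.75 at 6 h, SE 0.27). Of 11 COPI genes, which serve the way back to the ER, 10 were higher at 9 h (36.6% of all genes), ARF4 by 2.17 (SE 0.15). COPZ2 was lower at 6, 9 and 12 h.

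The 4 cows with 6 biopsies and the 4 with 3 biopsies could be compared at 9 and 48 h. In no gene of the list did the change against -22 h differ between the schedules by the limma interaction term (adjusted p below 0.05), and at an unadjusted p below 0.05 there was 1 at 9 h, P4HB, and 0 at 48 h. Over all 24128 probe sets, 3 were called at 9 h and 0 at 48 h. For P4HB the mean was 13.99 at 9 h and 13.28 at -22 h in cows with 6 biopsies, and 13.81 at 9 h and 13.44 at -22 h in cows with 3 biopsies (difference of the changes 0.35, SE 0.15, adjusted p = 0.956).

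Of the 47 genes, 14 had more than 1 probe set. None of the 14 had probe sets called in opposite directions at 3, 6, 9 or 12 h, and 1, DNAJC10, did at 48 h.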

How the data were processed

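The authors processed the Affymetrix arrays with GCRMA in R, and the deposited values, 1 log2 value per probe set and array, were used as deposited. GCRMA corrects the background by probe sequence, normalises quantiles over the arrays and summarises the probes of a set, so that values are relative to the other arrays and near the ends of the scale changes are compressed. Genes were named from the platform annotation, with symbols updated through RefSeq tables of the ARS-UCD2.0 assembly, from probe sets that name 1 gene (13318 of 24128). Probe sets that name several genes (86) or are not in the annotation (10724) were fitted but not named.

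All 24128 probe sets, with no filter on dim values, entered 1 linear model (limma 3.58.1, R 4.3.3) over the 36 arrays that had a mean for each hour and no term for the cow. Each hour was compared with -22 h (Benjamini-Hochberg-adjusted p below 0.05), and successive hours were compared at a Bonferroni-adjusted p below 0.01, as in the methods of the study. The interaction of hour and biopsy schedule used the 24 arrays at -22, 9 and 48 h. The code was tested on simulated data. Cow numbers follow the animal labels. Arrays of the same cow deviated together from the means at -22 and 48 h (mean correlation across probe sets 0.316, range 0.116 to 0.505, 8 cows). Those of different cows did so less (mean -0.0446, range -0.235 to 0.211), and the ranges overlap. The 48 h array of cow 2 correlated more with the -22 h array of cow 1 (0.202) than with its own (0.116). Pairing at the other hours was not checked in this way. A model with a replicate block for the cow was an alternative. The 5 calls against -22 h that it changed are given beside the genes concerned. Since cows were sampled repeatedly, n counts cows at an hour.

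Genes given with values in every cow were, in each group, the 3 with the largest change among those called and in the same direction in every cow, the brightest, and EIF2AK3. Of each further list the gene with the largest change was named. HSPA5, SSR4, KDELR3, SEC62, SEC11A, SEC23A and KDELR1 were added after their values were seen. So were CALR and P4HB, which are given by their changes and not by values in every cow. The rule for the 56 genes uses names only, but these genes and the further lists were all proposed with earlier results of these data known, so counts over them are descriptions. The other alternatives were a random effect of the cow, leaving out 1 cow at a time, using the 4 cows sampled at every hour alone, array weights, Bonferroni adjustment, averaging the probe sets of a gene, median centring (subtracting from every array its median over probe sets with a mean of at least 5), and keeping probe sets that reached 5 on the log2 scale in 4 or more arrays. The second brightest probe set, the fit without 2 arrays and the block fit in 4 cows were added after seeing the data. Raw array files and sequences of promoters and proteins were not used here. Figures were drawn with matplotlib 3.10.9.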

Additional observations from a re-analysis of the deposited data

Results flagged for a closer look

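In groups of 4 or 8 cows, a cow far from the others was looked for in the 4 group means and in 24 genes, 168 tests in all. Of these 27 found one, where chance at 1 in 20 gives 8.4. The genes share arrays, so the tests are not independent. Cow 2 at 48 h was the highest in 13 of the 27, cow 1 at -22 h the highest in 6, cow 3 the lowest at 6 h in 6 and at 3 h in 1, and cow 7 the highest at 6 h in 1. No explanation was tested.

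Cow 2 at 48 h had a chaperone mean of 12.18 (next cow 11.0) and a mean of sensing and degradation genes of 10.99 (next cow 9.81). Its values were 10.95 for HYOU1, 12.0 for CRELD2, 14.01 for MANF, 14.9 for HSP90B1 and 15.09 for HSPA5. In the other groups they were 12.34 for HERPUD1, 11.45 for SYVN1 and 12.67 for SEL1L, and 13.78 for SEC61G, 12.02 for KDELR2 and 12.23 for SEC31A. The next cow for SYVN1 was at 8.95 and for SEC31A at 11.56.

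Cow 1 at -22 h had a mean of sensing and degradation genes of 10.16 (next cow 9.47), with 9.155 for HYOU1, 10.38 for CRELD2, 12.69 for MANF, 11.36 for HERPUD1 and 10.04 for SYVN1. The sample was taken before LPS, and the next cow for CRELD2 was at 7.99.

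Cow 3 at 6 h had a translocation mean of 11.03 (next cow 11.42) and a COPII and retrieval mean of 9.134 (next cow 9.77), with 12.28 for CRELD2, 15.2 for HSP90B1, 11.52 for KDELR2 and 7.724 for KDELR1. For HSP90B1 the next cow was at 15.27, so the gap is small. HERPUD1 was at 11.28 in cow 3 at 3 h (next cow 12.15) and at 14.23 in cow 7 at 6 h (next cow 13.84).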

How the results depend on the processing

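For the 24 genes singled out by the rule or after their values were seen, each at its hour of largest change, no direction turned under any alternative. Of their values under alternatives 453 stayed on their side of the threshold and 3 did not, all with Bonferroni adjustment (KDELR1 at 6 h, KDELR3 at 48 h and P4HB at 12 h). Of the counts over the 47 measured genes, 228 stayed within 1.5 times and 46 did not. The cause was not tested. With the cow as a replicate block, 2 genes were lower at 48 h instead of 1 (KDELR1 was added) and none was lower at 9 h than at 6 h. In the 4 cows sampled at all hours, 4 genes were higher at 3 h, 8 were higher at 48 h and 0 lower at 48 h, and with the block added these were 11, 18 and 0. Over all 24128 probe sets the same counts were 501, 584 and 852, and with the block 666, 953 and 1359. Array weights gave 30 higher and 1 lower at 3 h and 3 lower at 48 h (1470, 1641 and 3988 of all probe sets). Without the -22 h array of cow 1 and the 48 h array of cow 2, 20 were higher at 3 h (1182 of all probe sets). Bonferroni adjustment left 0 higher at 3 h, 23 higher and 2 lower at 6 h, 2 lower at 9 h, and 4 higher and 0 lower at 48 h. Median centring and the mean of probe sets each gave 0 lower at 48 h. DNAJC10 was called lower at 6 h with the replicate block. Leaving out each cow in turn gave 2 to 10 higher at 3 h, 17 to 29 higher and 1 to 2 lower at 48 h, 0 to 12 higher and 0 to 1 lower at 6 h against 3 h, 0 to 1 lower at 9 h against 6 h, and 0 to 1 higher and 6 to 24 lower at 48 h against 12 h. Over all probe sets these fits gave 623 to 863 higher at 3 h, and 1437 to 6516 higher and 2143 to 3245 lower at 48 h.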
